A study of Mus musculus with 6 samples.

Results

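Neutrophils of the mouse spleen were examined in 1 untreated and 1 phenylhydrazine (PHZ)-treated section. The cells were chosen by their measured counts, and a cell was counted as a neutrophil when it held at least 5 transcripts of S100a9, Csf3r and Pglyrp1 together and fewer than 3 of C1qa, C1qb and C1qc. By this rule 1100 of 108338 cells in the untreated spleen and 2121 of 94582 cells in the PHZ spleen were neutrophils, 3221 of 202920 in both. The study mapped erythroid niches, the places where red cells mature, by in situ imaging of RNA in 6 mouse sections, of which the other 4 came from fetal liver and bone marrow. Of these, the bone marrow of a wild-type mouse at postnatal day 8 was used for 1 comparison. Both spleens came from adult wild-type C57BL/6 mice. The PHZ mouse received 40 mg per kg PHZ, which lyses red cells, by intraperitoneal injection 2 times a day for 2 days. The labels give no injection for the untreated mouse, whereas the study's methods mention vehicle for controls. Each condition is 1 section of 5 µm from 1 spleen, so treatment, animal and section cannot be told apart, and no test between them was possible. Intervals have 95% confidence by exact methods and cover counting error only. Ranges over parts refer to the 4 parts of equal cell number into which each section was divided, which are pieces of 1 tissue and not replicates.

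Neutrophils develop in the bone marrow from proliferating precursors that first fill azurophil granules with Mpo, Elane and Ctsg. Later stages stop making these, add the contents of specific and gelatinase granules such as Mmp8 and Mmp9, and gain Cxcr2, the chemokine receptor that draws mature cells into the blood. In the adult mouse spleen, mature neutrophils pass through and pool in the red pulp, and under stress the red pulp can also produce blood cells. Of the genes that defined the cells here, S100a9 encodes part of the abundant cytosolic protein calprotectin, Csf3r the receptor for granulocyte colony-stimulating factor, and Pglyrp1 a bactericidal granule protein. The C1q genes, which mark macrophages, excluded cells. The levels of these 6 genes follow from the rule and are given as a description.

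A segmented cell was a stained nucleus with an expanded outline, so its counts can include transcripts of neighboring cells. The spleens shared 1 slide, 1 run and 1 panel of 477 genes. The untreated section held 10351683 gene transcripts in cells and the PHZ section 11430388, with at most 77 and 76 transcripts for any negative control probe. The sections shared 1 cell barcode, which belonged to no neutrophil. S100a9 transcripts outside any cell made up 1.85% of those detected in the untreated and 7.44% in the PHZ spleen, against 0.595% and 1.73% for all genes.

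Neutrophils made up 1.02% of the cells in the untreated spleen (0.957% to 1.08%) and 2.24% in the PHZ spleen (2.15% to 2.34%). The parts ranged from 0.82% to 1.51% and from 1.83% to 2.60%, without overlap. The share was thus 2.21-fold higher after PHZ (2.05 to 2.38). Per area the difference was smaller, with 235 neutrophils per mm² in the untreated and 301 in the PHZ spleen, a ratio of 1.28 (1.19 to 1.38), and here the parts overlapped (184 to 325 and 242 to 346). The PHZ section was larger (7.06 against 4.67 mm²) and less densely packed, with 13410 against 23190 cells per mm². The exclusion by C1q weighed unequally on both sections: it removed 1119 of 2219 cells past the granulocyte threshold in the untreated spleen (50.4%) and 956 of 3077 in the PHZ spleen (31.1%). Without it the shares were 2.05% and 3.25%, a ratio of 1.59. At a threshold of 10 counts the shares were 0.475% and 0.683%, a ratio of 1.44. With every cell thinned to 50 counts and a threshold of 3, they were 1.67% and 2.75%, a ratio of 1.65. The share of cells was thus higher after PHZ in each of these settings, by a size that depended on the rule. Per area the direction turned in all 3, with 475 neutrophils per mm² in the untreated and 436 in the PHZ spleen without the C1q limit, 110 and 91.6 at a threshold of 10 counts, and 326 and 312 after thinning. From transcripts over the nucleus it turned as well, with 255 and 206 per mm². In other settings the density stayed higher in the PHZ spleen. It was 460.4 and 567.7 per mm² with at least 3 defining counts, and 118.1 and 171.4 with no C1q count. Without S100a9 it was 283.1 and 322.9, without Csf3r 159.0 and 188.0, and without Pglyrp1 209.5 and 226.1. The direction per area thus depended on the rule.

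Neutrophils carried a median of 93 panel transcripts in the untreated spleen, against 84 in the other cells, and 110 against 104 in the PHZ spleen. Nuclear areas were alike, at a median of 22.04 µm² in untreated and 22.1 µm² in PHZ neutrophils. The expanded outlines were larger after PHZ, with a median of 56.0 against 36.01 µm², and the other cells differed in the same way (52.9 against 35.6 µm²). Of the transcripts in neutrophils, 64.4% lay over the nucleus in the untreated and 52.5% in the PHZ spleen.

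The threshold cut through a continuum. In the untreated spleen 325 cells fell just short with 4 counts of the defining genes and 200 just passed with 5, and in the PHZ spleen the numbers were 679 and 508. Untreated cells with 4 counts averaged 0.754 Mmp9 counts, those with 5 averaged 1.27, and those with at least 10 averaged 4.68. Mpo averaged 0.817, 1.22 and 3.63 counts in the corresponding cells of the PHZ spleen. On the C1q side, 215 untreated neutrophils had 2 C1q counts, and 156 cells were excluded with 3. Mmp9 averaged 2.99 and 2.67 counts in these cells, and 337 PHZ neutrophils with 2 C1q counts and 224 excluded cells with 3 averaged 1.51 and 1.23.

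Of the defining genes, S100a9 averaged 5.87 counts per neutrophil in the untreated and 3.88 in the PHZ spleen, and Csf3r 3.80 and 2.57. Pglyrp1 went the other way, from 1.15 to 2.22 counts. Neutrophils held 5.86% of all Pglyrp1 counts of the untreated section and 42.7% of those of the PHZ section. The other cells held 0.189 counts each in the untreated and 0.0686 in the PHZ spleen.

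Ly6g, Cxcr2, Mmp8 and Mmp9, neutrophil genes that the rule did not use, were at least 10.4-fold higher in these cells than in the others in both sections. Folds against the other cells compare shares of all panel counts, among genes with at least 200 counts in neutrophils. In the untreated spleen 20% of the 110 genes so compared were at least 2-fold higher in neutrophils and 16.4% at least 2-fold lower. The corresponding shares in the PHZ spleen were 26.4% and 20.1% of 159 genes. The leading genes below are ranked without the genes of the rule. Leading in the untreated spleen were Stfa2l1, a stefin that inhibits cysteine proteases, at 43.2-fold, the neutrophil collagenase Mmp8 at 38.8-fold and Cstdc4, another gene of the stefin family, at 34.9-fold. The gelatinase Mmp9 followed at 29.8-fold, Cxcr2 at 26.3-fold and the complement receptor C5ar1 at 26.2-fold. Hp, Mrgpra2a, Pi16 and the neutrophil surface antigen Ly6g completed the leading 10, at 23.6, 21.3, 17.9 and 15.3-fold. The highest folds in the PHZ spleen were those of the lectin Fcnb at 45.7-fold, Ctsg at 38.6-fold and the transporter gene Abca13 at 36.1-fold. Lipg, an endothelial lipase, stood at 24.5-fold, Mpo at 21.9-fold and Elane at 20.9-fold, ahead of Stfa2l1, Ifitm6 and Cxcr2 at 20.2, 19.3 and 19.1-fold, and Mrgpra2a was at 21.2-fold. Of these 10 genes, Fcnb, Ctsg, Abca13, Lipg, Mpo and Elane had fewer than 200 counts in untreated neutrophils and could not enter the comparison there. Stfa2l1, Cxcr2 and Mrgpra2a stood in both leading groups. Stefin genes occur as near-identical copies, which the probes may not separate.

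Transcripts of other cell types were also present in neutrophils. No gene of the 9 marker lists was at 0 in either section. The 14 macrophage markers other than C1q summed to 5.92 counts per untreated neutrophil (5.67 to 6.45 over parts) against 9.66 per other cell, led by the iron exporter gene Slc40a1 and by Mpeg1, with 2.20 and 1.21 counts per neutrophil. Per PHZ neutrophil they summed to 4.86 (4.58 to 5.05) against 7.99. The 11 erythroid markers summed to 2.44 counts per untreated (1.59 to 2.85) and 15.7 per PHZ neutrophil (13.1 to 17.9), against 3.38 and 30.4 per other cell. Hbb-bt, a globin gene, alone gave 0.84 and 3.84 counts. The 4 T cell markers summed to 1.06 and 0.214 counts per neutrophil, and 2.46 and 0.527 per other cell. The 4 monocyte markers summed to 0.81 and 1.22 counts, against 1.06 and 0.87 per other cell. The 9 stromal markers summed to 1.698 and 4.01 (2.69 and 4.32 per other cell), and the 7 endothelial markers to 1.15 and 0.774 (1.11 and 1.15). The 4 megakaryocyte and platelet markers summed to 0.808 and 0.758 (0.689 and 0.809), the 3 NK cell markers to 0.377 and 0.0646 (0.449 and 0.073), and the 2 eosinophil, basophil and mast cell markers to 0.13 and 0.105 (0.13 and 0.0741). Erythroid transcripts thus went up, and T cell transcripts down, in neutrophils and in their surroundings alike. How much of any gene in a neutrophil came from its neighbors was not tested.

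Between the spleens, neutrophils were compared by the share of their panel counts that each gene took, for the 188 genes with at least 200 counts over both groups of neutrophils. In PHZ neutrophils 55 genes (29.3%) were at least 2-fold higher and 50 (26.6%) at least 2-fold lower, while the median gene was at 0.978-fold. In counts per cell, where the median gene shifted by 0.31 on the log2 scale against -0.03 for shares, 67 genes were higher and 36 lower. In the other cells, 49 (26.1%) of the same genes were at least 2-fold higher and 61 (32.4%) at least 2-fold lower. Of the 55 genes, 44 passed 2-fold upward in the other cells too, and 40 of the 50 passed 2-fold downward there. Most changes past 2-fold were thus shared in direction with the rest of the tissue, and some differed from it in size. For 33 of the 188 genes the fold in neutrophils was at least 2-fold above that of the other cells. For 11 genes it was at least 2-fold below.

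The 3 azurophil granule genes were much higher in PHZ neutrophils, and by more than in the rest of the tissue. Over all genes compared 29.3% were at least 2-fold higher. All 3 granule genes had at least 200 counts in PHZ neutrophils alone, but none had in untreated neutrophils alone. They thus entered the comparison through the group where they were high, and the part of this selection in their count was not tested. Mpo, the gene of myeloperoxidase, averaged 0.0954 counts per neutrophil in the untreated spleen (0.0396 to 0.167 over parts) and 2.13 in the PHZ spleen (1.57 to 3.66). The parts did not overlap, and the fold was 17.6 (14.5 to 21.6), against 2.97 in the other cells. Elane, the gene of neutrophil elastase, went from 0.107 (0.0573 to 0.157) to 1.86 counts (1.44 to 3.02), a fold of 13.7 (11.4 to 16.6), against 2.93 in the other cells. Ctsg, the gene of cathepsin G, rested on 13 counts in all untreated neutrophils, or 0.0118 per cell, and reached 0.916 in the PHZ spleen (0.383 to 1.78). Its fold was 61.3 (35.8 to 115), against 6.37 in the other cells. Without the C1q limit the folds were lower, at 8.32 for Mpo, 6.36 for Elane and 20.7 for Ctsg. After thinning all cells to 50 counts, at least 1 Mpo count was left in 1.91% of untreated (1.15% to 2.96%) and 27.3% of PHZ neutrophils (25.4% to 29.3%), and without thinning in 2.55% and 30.7%. In T cells, which should lack Mpo, the thinned shares were 0.467% and 0.956%. T cells, taken as cells with at least 3 counts of Cd3d, Cd3e, Cd4 and Cd8a, had median depths of 92 and 87 counts. Thinning left out 103 untreated and 124 PHZ neutrophils.

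**Figure D1:**
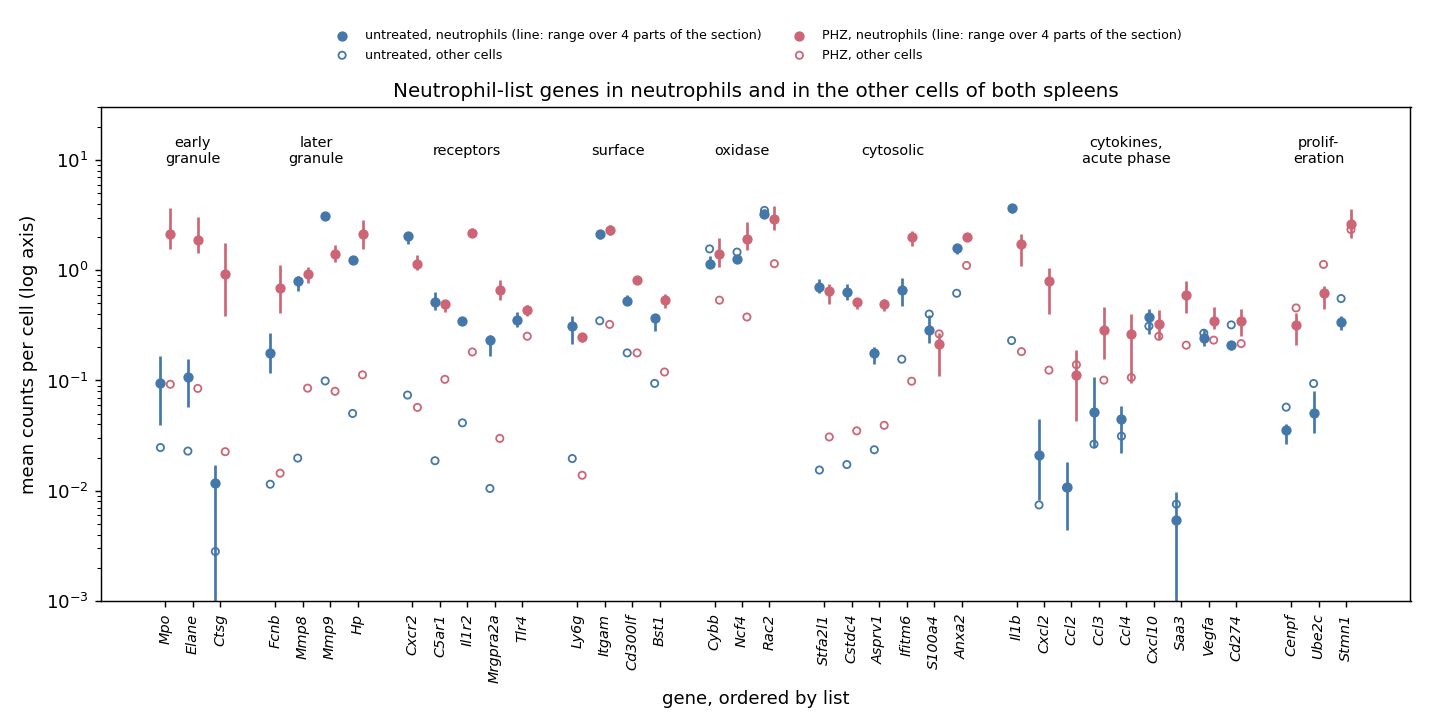
Mean counts per cell on a log axis for genes of 8 neutrophil lists that had at least 200 counts over both groups of neutrophils. Filled points are neutrophils with lines for the range over the parts of the section (lines are cut off at the foot of the axis where a part was at 0), and open points are the other cells. Mpo, Elane, Ctsg, Il1r2 and Ifitm6 lie higher in PHZ neutrophils, and Mmp9, Cxcr2 and Il1b lie lower.

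Of the 4 genes of later granules, 1 was higher and 1 lower, near the shares over all genes (29.3% and 26.6%). Fcnb, a ficolin made by immature neutrophils, averaged 0.178 counts in untreated (0.117 to 0.271) and 0.692 in PHZ neutrophils (0.406 to 1.12), a fold of 3.07 (2.65 to 3.58) with 0.996 in the other cells. Without the C1q limit it was 1.47-fold, and among neutrophils without Mpo, Elane or Ctsg counts it turned to 0.264-fold. Mmp9 was lower, with 3.10 (2.93 to 3.25) and 1.41 counts (1.19 to 1.69), or 0.36-fold (0.343 to 0.378). Among neutrophils without Mpo, Elane or Ctsg counts Mmp9 was at 0.547-fold, within 2-fold. Mmp8 stood at 0.916-fold and Hp, the gene of the hemoglobin scavenger haptoglobin, at 1.34-fold, both within 2-fold. However, Mmp8 in the other cells was 3.41-fold higher, from 0.0198 counts per cell in the untreated spleen.

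Of 5 receptor genes, 2 were higher, 1 was lower and 2 were within 2-fold, near the shares over all genes (29.3% higher and 26.6% lower). Il1r2, a decoy receptor that captures interleukin-1, averaged 0.35 counts in untreated (0.339 to 0.366) and 2.17 in PHZ neutrophils (2.05 to 2.40). The parts of each section lay close together, and the fold was 4.89 (4.41 to 5.45), with 3.48 in the other cells. After thinning, Il1r2 was detected in 14.6% and 54.1% of neutrophils (24.4% and 74.7% without thinning), and in 3.06% and 7.05% of T cells. Mrgpra2a, a G protein-coupled receptor gene, was 2.23-fold higher (1.96 to 2.56) against 2.25-fold in the other cells. Cxcr2 averaged 2.04 (1.74 to 2.19) and 1.14 counts (1.00 to 1.36), or 0.444-fold (0.419 to 0.471). It was within 2-fold in counts per cell (0.562-fold), without the C1q limit (0.599-fold) and with a gate that left out S100a9 (0.575-fold). The same held among neutrophils without Mpo, Elane or Ctsg counts (0.624-fold). C5ar1 was at 0.754-fold in neutrophils and at 4.33-fold in the other cells, and the endotoxin receptor gene Tlr4 was at 0.978-fold.

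The 4 surface antigens all lay within 2-fold. Ly6g averaged 0.315 and 0.248 counts (0.624-fold), and Itgam, the gene of CD11b, 2.12 and 2.32 (0.867-fold). Cd300lf, an inhibitory receptor gene, was at 1.24-fold and Bst1, the gene of CD157, at 1.16-fold. The 3 oxidase genes, whose products make superoxide, also lay within 2-fold in neutrophils, with 0.974 for Cybb, 1.21 for Ncf4 and 0.712 for Rac2. The other cells had these genes at 0.271, 0.204 and 0.26-fold. Ncf4 was thus at 0.824 times the level of the other cells in untreated neutrophils and at 4.91 times that level in PHZ neutrophils.

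Of 6 genes listed as cytosolic, although Ifitm6 encodes a membrane protein, 2 were higher and none lower, beside 29.3% and 26.6% over all genes. Ifitm6, an interferon-induced transmembrane protein gene, averaged 0.664 (0.477 to 0.86) and 2.00 counts (1.65 to 2.25), a fold of 2.38 (2.20 to 2.58). By contrast, it was at 0.499-fold in the other cells. Without the C1q limit it was 1.86-fold higher in neutrophils, within 2-fold. Asprv1, an aspartic protease gene, was 2.21-fold higher (1.90 to 2.59). Stfa2l1 (0.738-fold), Cstdc4 (0.642-fold), S100a4 (0.585-fold) and Anxa2 (0.997-fold) lay within 2-fold. Of 6 leukocyte signalling and lipid mediator genes, 5 had enough counts and 2 were lower, beside 26.6% over all genes. Plbd1, a phospholipase-like gene, was at 0.305-fold and Tyrobp, an adaptor of activating receptors, at 0.433-fold, while Lst1, Laptm5 and Alox5ap lay between 0.525 and 1.09-fold. In the other cells Plbd1 and Tyrobp were at 0.189 and 0.458-fold. Tyrobp was within 2-fold in counts per cell (0.547-fold), without the C1q limit (0.528-fold) and among neutrophils without Mpo, Elane or Ctsg counts (0.518-fold).

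Cytokine and acute phase genes differed most among themselves. Of 12 genes, 9 had enough counts, of which 5 were higher and 1 was lower, beside 29.3% higher and 26.6% lower over all genes compared. Their median was 4.40-fold in neutrophils, where that of all genes was 0.978-fold, and 2.70-fold in the other cells. All 9 had enough counts in PHZ neutrophils alone, but only 4 had enough in untreated neutrophils alone. Counting both groups together thus let in genes that had enough counts only after PHZ. The part of this selection in the 5 higher genes and in the median was not tested. Cxcl2, a ligand of Cxcr2, averaged 0.0209 counts in untreated (0.00826 to 0.045) and 0.804 in PHZ neutrophils (0.403 to 1.05), a fold of 30.4 (20.2 to 48.1) against 13.2 in the other cells. Saa3, an acute phase apolipoprotein gene, rested on 6 counts in untreated neutrophils and reached 0.602 counts per cell in the PHZ spleen, 87.2-fold higher (40.0 to 238) against 21.9-fold in the other cells. The chemokine genes Ccl2, Ccl3 and Ccl4 were 8.20, 4.40 and 4.73-fold higher in neutrophils, and 10.3, 3.02 and 2.70-fold higher in the other cells. Il1b, the gene of interleukin-1 beta, averaged 3.64 counts in untreated (3.29 to 4.01) and 1.75 in PHZ neutrophils (1.10 to 2.14), or 0.38-fold (0.363 to 0.397). The fold in the other cells was 0.628. Without the C1q limit Il1b was at 0.504-fold in neutrophils, and among those without Mpo, Elane or Ctsg counts at 0.608-fold, both within 2-fold. Cxcl10, Vegfa and Cd274 lay within 2-fold, and Cxcl1, Il10 and Tnfaip6 had too few counts.

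Of 6 interferon-induced genes, Rsad2 (3.29-fold) and Isg20 (2.96-fold) were higher, Epsti1 (0.269-fold) and Psmb8 (0.445-fold) lower, and Gbp2 (0.958-fold) and Gbp5 (0.801-fold) within 2-fold, again near the 29.3% and 26.6% over all genes. Psmb8 was within 2-fold in counts per cell (0.563-fold) and without the C1q limit (0.564-fold). In the other cells Rsad2 and Isg20 were higher by more, at 9.10 and 5.52-fold. The median of the 6 genes was 0.88-fold in neutrophils and 0.374-fold in the other cells. All 3 proliferation genes were higher, beside 29.3% over all genes. All 3 had enough counts in PHZ neutrophils alone, but only 1 had in untreated neutrophils alone. The part of this selection in their count was not tested. Stmn1, a regulator of microtubules, went from 0.34 to 2.61 counts (6.07-fold). The mitotic genes Ube2c and Cenpf went from 0.0509 to 0.619 (9.61-fold) and from 0.0355 to 0.316 (7.06-fold). The other cells had folds of 3.34, 9.52 and 6.29 for these genes, and more Ube2c (1.13 counts per cell) than the neutrophils.

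The 10 largest increases in neutrophils were Saa3, Lipg, Ctsg, Plek2, Cxcl2, Hemgn, Serpina3n, Rhd, Klf1 and Mpo. Of these, Plek2, Hemgn, Rhd and Klf1 are expressed in red cell precursors, and they were higher in the other cells by similar or larger folds (76.2, 18.7, 24.2 and 17.97, against 46.8, 23.7, 22.6 and 22.3 in neutrophils). Lipg had 2 counts in untreated and 400 in PHZ neutrophils, a ratio of 82.0 (22.6 to 680) against 2.45 in the other cells. Serpina3n, an acute phase protease inhibitor gene, had 9 and 519 counts, a ratio of 23.6 (12.4 to 52.0) against 3.76. Abca13 was 4.19-fold higher (3.17 to 5.63) against 1.05. The 10 largest decreases were AU021092, Gad1, Coch, Cxcr5, Hpgd, Cavin2, Cd4, Cd3d, Ccl5 and Cd8a, from 0.0658 to 0.165-fold. Cd4, Cd3d, Cd8a, Ccl5 and Cxcr5 are genes of lymphocytes. In the other cells the same 10 genes ranged from 0.0894-fold for Coch to 0.251-fold for Cavin2. Over the marker lists, all 11 erythroid markers were at least 2-fold higher (median 8.82-fold, and 10.3-fold in the other cells) and all 4 T cell markers at least 2-fold lower (median 0.16-fold, and 0.155-fold in the other cells). All 11 erythroid markers had enough counts in PHZ neutrophils alone, but 5 had in untreated neutrophils alone. The 4 T cell markers had enough in untreated neutrophils alone and none in PHZ neutrophils alone. Counting both groups together thus let in genes through the group where they were high. The part of this selection in the marker list counts was not tested. Of the 10 macrophage markers with enough counts 4 were lower, of 4 endothelial markers 3 were lower, and of 7 stromal markers 3 were higher, beside 26.6% lower and 29.3% higher over all genes. Of the 4 monocyte markers 1 was higher and 1 lower, the 1 NK cell marker with enough counts was lower, and the megakaryocyte and mast cell markers with enough counts lay within 2-fold. Pi16, among the leading genes of neutrophils in the untreated spleen, was at 0.429-fold in neutrophils and 0.486-fold in the other cells. It was within 2-fold in counts per cell (0.542-fold) and with a gate that left out S100a9 (0.559-fold).

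**Figure D2:**
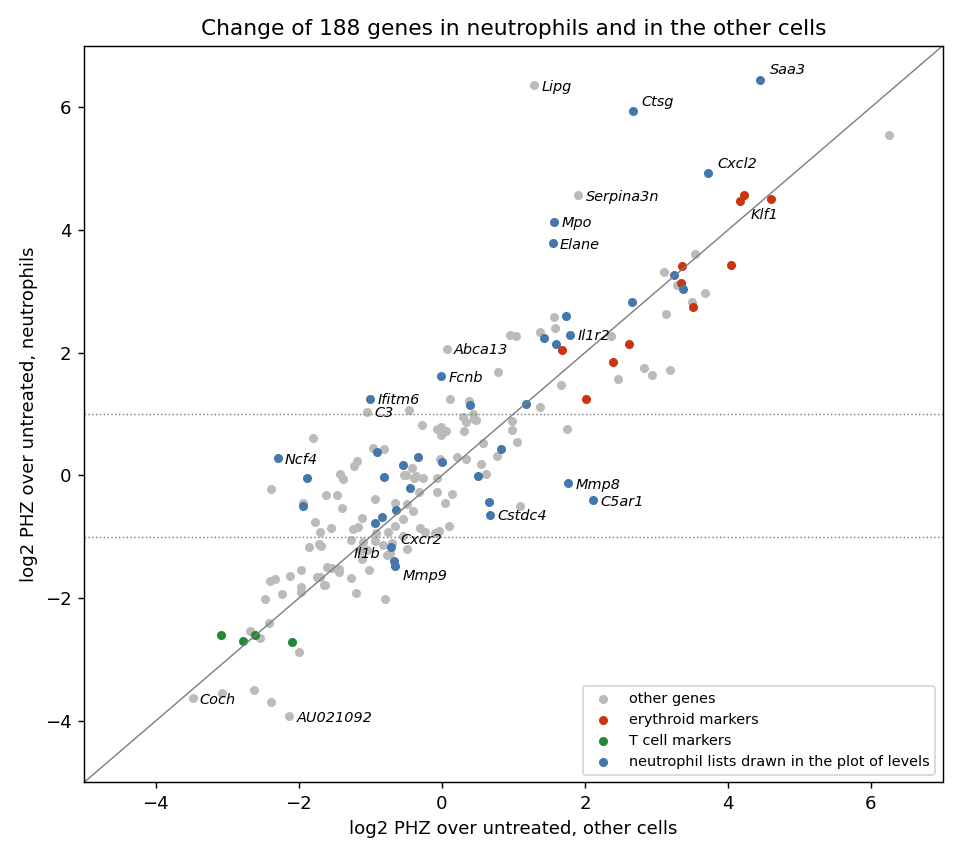
Log2 fold between the PHZ and the untreated spleen in neutrophils (vertical axis) and in the other cells (horizontal axis) for 188 genes. The diagonal marks equal folds and the dotted lines mark 2-fold in neutrophils. Erythroid and T cell markers lie near the diagonal, Mpo, Elane, Ctsg and Lipg far above it, and C5ar1 and Mmp8 below it.

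PHZ neutrophils were not of 1 kind. Summing Mpo, Elane and Ctsg, 597 of the 2121 PHZ neutrophils, or 28.1% (26.2% to 30.1%), held at least 3 counts, 141 held 1 or 2, and 1383 held 0. In the untreated spleen 18 of 1100 held at least 3, or 1.64% (0.973% to 2.57%), and 1063 held 0. This division was made after the data were seen and describes a range rather than a cell type. In the PHZ spleen 70 neutrophils lay next to the limit with 2 or 3 counts. The 597 neutrophils had a median depth of 152 counts and a median nucleus of 25.1 µm² (quartiles 18.2 and 35.3), and the 1383 had 97 counts and 21.0 µm² (14.2 and 27.7). In these 597 neutrophils Mpo averaged 7.42, Elane 6.45 and Ctsg 3.25 counts. The 18 untreated neutrophils averaged 5.28, 5.89 and 0.722 counts, and their megakaryocyte and platelet markers had a median of 0 but a mean of 4.61 counts, against 0.663 in the untreated neutrophils with 0 counts.

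Other genes followed this division closely. Comparing the shares of panel counts of the 597 with those of the 1383 PHZ neutrophils, 23 of 147 genes (15.6%) were at least 2-fold higher and 47 (32.0%) at least 2-fold lower. Fcnb averaged 2.20 counts where Mpo, Elane and Ctsg were present and 0.0297 where they were at 0, a fold of 49.6 (36.3 to 69.4). Abca13 was 9.92-fold higher, Cybb 3.67-fold, Ly6c1 3.63-fold, Stmn1 3.18-fold and Ncf4 2.61-fold. Lipg was 2.57-fold higher, Cenpf 2.48-fold, Hp 2.42-fold and Kit, the stem cell factor receptor gene, 2.28-fold. Ccr2, a chemokine receptor gene of monocytes, and F13a1, a coagulation factor gene, were 5.63 and 4.45-fold higher, and the 4 monocyte markers had a median of 1 and a mean of 2.42 counts in these cells, against 0 and 0.69. Macrophage markers had a median of 4 counts in both, T cell markers a median of 0 in both, and erythroid markers medians of 11 and 8. As shares of panel counts, which the folds compare, several lists of other cells were lower in the 597 than in the 1383 neutrophils. Macrophage markers made up 2.76% against 4.59%, stromal markers 1.895% against 3.79%, endothelial markers 0.263% against 0.842%, megakaryocyte and platelet markers 0.297% against 0.815%, and T cell markers 0.101% against 0.216%. Erythroid markers were closer, at 11.4% against 12.95%, and monocyte markers were higher, at 1.47% against 0.627%. Stromal, endothelial and macrophage genes such as Igfbp7, Des, Plvap, Eng, Spic and Maf were among the 47 lower genes. The macrophage marker Vcam1 went the other way, 3.10-fold higher in the 597 (2.64 to 3.63). The macrophage markers Cd68, Slc40a1 and Cd5l lay within 2-fold. The part of other cell types' transcripts in the differences between these neutrophils was not tested.

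The neutrophils with 0 counts of these granule genes held the late set instead. Il1b averaged 2.51 counts in them and 0.151 in the 597, a fold of 24.99 (20.3 to 31.2), and Mmp9 1.92 against 0.28 (10.3-fold). Cxcr2 averaged 1.44 against 0.456 (4.73-fold), Mmp8 1.20 against 0.342 (5.28-fold), Stfa2l1 0.869 against 0.152 (8.55-fold) and Cxcl2 1.15 against 0.0603 (28.6-fold). Ly6g averaged 0.275 against 0.152 (2.70-fold). Il1r2 was present in both, with 2.40 and 1.64 counts, although 2.19-fold higher as a share in those with 0 counts, and Saa3 with 0.616 and 0.596 counts. After thinning to 50 counts, 22.7% of the 638 PHZ neutrophils that kept a count of Mpo, Elane or Ctsg also kept one of Cxcr2, Mmp9 or Il1b, against 80.7% of the 1359 without (45.0% and 91.4% before thinning). Only 58 PHZ neutrophils held at least 3 counts of both sets. The gate caught a part of the cells rich in azurophil transcripts: of 1581 PHZ cells with at least 3 counts of Mpo, Elane and Ctsg and fewer than 3 of C1q, 597 (37.8%) were neutrophils by the rule, and the others had a median of 1 count of the defining genes. In the untreated spleen the rule caught a smaller part of such cells, 18 of 99 (18.2%). The part of this inequality in the difference between the spleens was not tested.

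**Figure D3:**
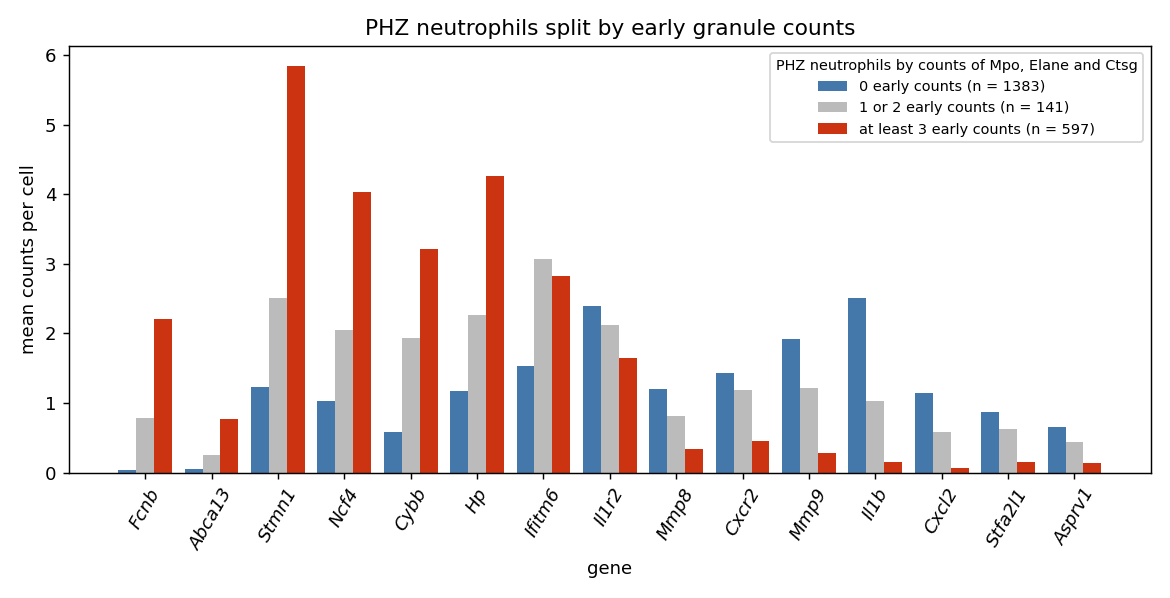
Mean counts per cell in PHZ neutrophils with 0, with 1 or 2, and with at least 3 counts of Mpo, Elane and Ctsg. Fcnb, Abca13, Stmn1, Ncf4, Cybb and Hp rise from the first to the last class, Mmp8, Cxcr2, Mmp9, Il1b, Cxcl2, Stfa2l1 and Asprv1 fall, and Il1r2 is present in all.

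Neutrophils without Mpo, Elane or Ctsg counts were also compared between the spleens, 1063 against 1383 cells, a comparison added after the data were seen. Il1r2 was 6.22-fold higher in the PHZ spleen, Cxcl2 47.9-fold and Asprv1 3.29-fold, beside 4.89, 30.4 and 2.21-fold over all neutrophils. The part of the cells rich in azurophil transcripts in the differences between the spleens was not tested. The lower levels were less marked, with 0.547-fold for Mmp9, 0.608-fold for Il1b and 0.624-fold for Cxcr2, none past 2-fold. Fcnb turned around to 0.264-fold and Abca13 was at 1.20-fold. Among neutrophils of this kind Stfa2l1 was at 1.10-fold and Cstdc4 at 0.971-fold.

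Neutrophils lay close to one another. Within 20 µm of an untreated neutrophil, 1.30 other neutrophils were found (SD 1.67 over cells), against 0.316 around any cell, a ratio of 4.12 (3.50 to 4.34 over parts). In the PHZ spleen 2.86 (SD 3.85) were found around a neutrophil and 0.442 around any cell, a ratio of 6.46 (4.32 to 7.83). The median distance to the nearest other neutrophil was 14.8 µm in the untreated and 10.6 µm in the PHZ spleen. Linking neutrophils no more than 20 µm apart left 41.2% of untreated and 32.9% of PHZ neutrophils single. The largest linked group had 17 neutrophils in the untreated and 87 in the PHZ spleen, and groups of at least 10 held 63 neutrophils (5.73%) and 494 (23.3%). Transcripts that spread into neighboring outlines can also make adjacent cells pass the rule. In other cells within 20 µm of a PHZ neutrophil, Mpo averaged 0.303 counts, against 0.0327 farther away. These other cells include cells rich in azurophil transcripts that did not pass the rule. Of 1581 PHZ cells with at least 3 counts of Mpo, Elane and Ctsg and fewer than 3 of C1q, 597 passed. The part of spread in these values was not tested.

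Neutrophils in large groups held azurophil transcripts more often than single ones in both spleens. Of the 494 PHZ neutrophils in groups of at least 10, 62.6% held at least 3 counts of Mpo, Elane and Ctsg, compared with 5.87% of the single ones. In the untreated spleen the shares were 11.1% of 63, which lay in 5 groups, and 0.883%. These untreated shares rest on few cells, as only 18 neutrophils of that section held at least 3 such counts. Around each of the 597 lay 4.92 others of the 597 and 0.834 other neutrophils, whereas around the remaining PHZ neutrophils lay 0.327 of the 597 and 1.39 of their own kind. Around each of the 18 untreated neutrophils with at least 3 such counts lay 1.11 others of the 18, and around the other untreated neutrophils 0.0148 of the 18 and 1.27 of their own kind.

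PHZ neutrophils with at least 3 counts of Mpo, Elane and Ctsg lay near the rim of the section more often than the others. Within 100 µm of the outer edge of the section lay 47.1% of the 597 (43.0% to 51.2%), 17.3% of the 1383 neutrophils with 0 counts (15.3% to 19.4%) and 13.4% of all cells. Over parts the share of the 597 ranged from 33.5% to 84.1% and that of the 1383 from 12.5% to 22.4%. In the untreated spleen, 12 of the 18 neutrophils with at least 3 counts lay within 100 µm of the edge, as did 13.4% of those with 0 counts and 9.63% of all cells. Over parts the share of the 18 ranged from 0% to 100%. Neutrophils as a whole made up 4.69% of the cells of this rim in the PHZ spleen and 1.86% farther in, against 1.56% and 0.957% in the untreated spleen. The measure of the rim was chosen after the map was seen. It left out 5 untreated and 8 PHZ cells, none of them neutrophils. The share of PHZ neutrophils with at least 3 such counts was uneven over the section, 48.0% in 1 part and 18.9% to 23.6% in the others.

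**Figure D4:**
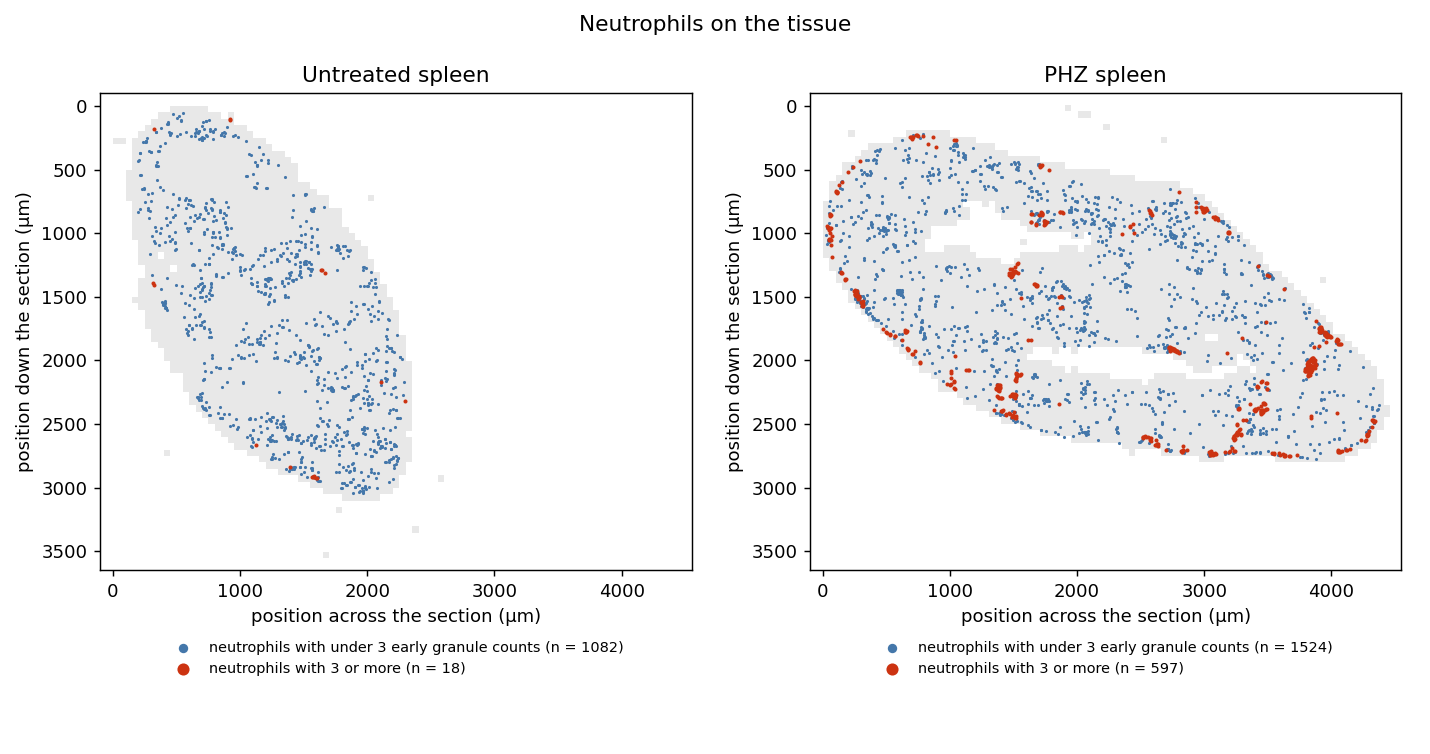
Positions of neutrophils in the untreated (left) and PHZ (right) section, in µm on a common scale, with tissue in grey as squares of 50 µm that held a cell. Red points are neutrophils with at least 3 counts of Mpo, Elane and Ctsg, 18 in the untreated and 597 in the PHZ spleen, where many lie close together and many lie along the rim. Blue points are the other neutrophils.

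Other cells around the neutrophils were classed by simple gates, which overlap: 3 or more C1q counts (macrophage) and the T cell gate above. Since no neutrophil can pass the macrophage gate, shares were taken over the neighbors that were not neutrophils, a denominator chosen after the data were seen. The macrophage gate uses the same C1q counts as the rule. By these the rule excluded 50.4% of untreated and 31.1% of PHZ cells past the granulocyte threshold. How far this exclusion shaped the macrophage shares around neutrophils was not tested. In the untreated spleen 42.0% of these within 20 µm of a neutrophil passed the macrophage gate (35.8% to 44.6% over parts), against 32.8% around any cell (26.5% to 37.9%). In the PHZ spleen the shares were 31.3% around neutrophils (29.2% to 33.8%) and 33.7% around any cell (32.5% to 35.0%). The ranges over parts overlapped in both spleens. This rested on the denominator: over all neighbors, neutrophils included, the PHZ shares were 26.8% (25.8% to 27.6%) and 33.0% (31.8% to 34.1%), without overlap, while the untreated ranges still overlapped. Around the 597 PHZ neutrophils the share was 31.6%, and around the other PHZ neutrophils 31.2%. Cells of the T cell gate made up 21.1% around neutrophils against 29.9% around any cell in the untreated spleen, where the ranges (19.6% to 22.8% and 23.9% to 34.9%) did not overlap. They made up 4.195% (3.07% to 6.86%) against 9.07% (4.63% to 14.4%) in the PHZ spleen, where they did.

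T cell-rich tissue held few neutrophils after PHZ. Taking places where at least 20% of the cells within 50 µm passed the T cell gate, 56.9% of all untreated cells and 45.8% of untreated neutrophils (42.8% to 48.8%) lay in such surroundings. In the PHZ spleen these were 11.8% of all cells and 2.22% of the neutrophils (1.63% to 2.94%). The limit of 20% marked unlike tissue in the spleens. The T cell gate was passed by 28.1% of all untreated cells, above this limit, and by 6.49% of all PHZ cells, below it. Neutrophils made up 0.818% of the cells there and 1.28% elsewhere in the untreated spleen, and 0.42% and 2.49% in the PHZ spleen.

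**Figure D5:**
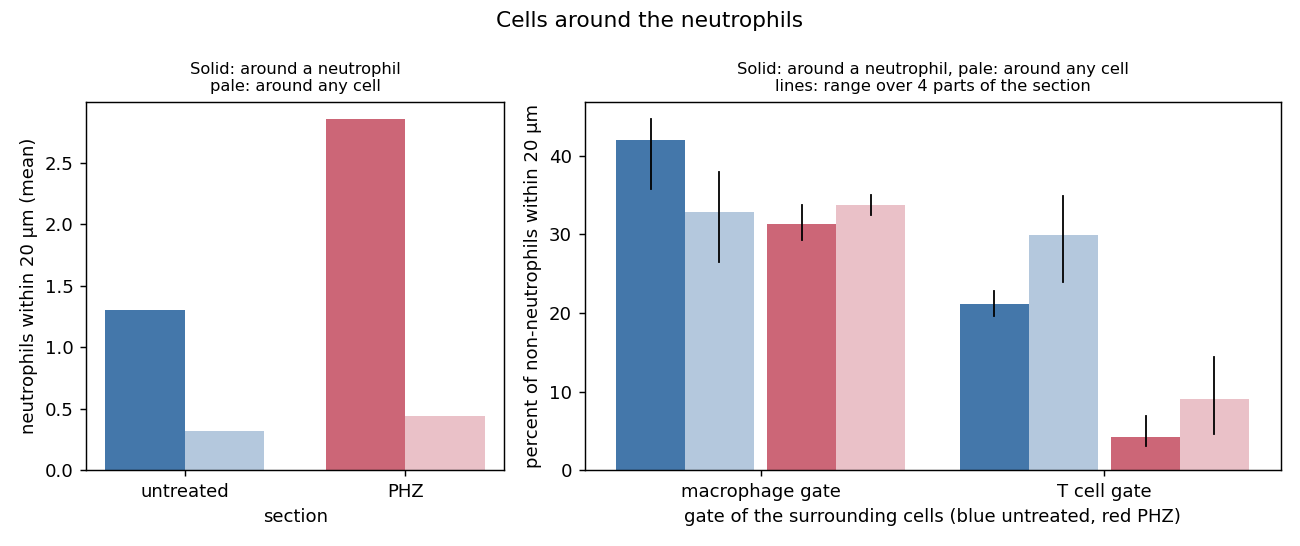
Left, mean number of neutrophils within 20 µm of a neutrophil (solid) and of any cell (pale). Right, percentage of the non-neutrophils within 20 µm that passed each gate, around neutrophils (solid) and around any cell (pale), with lines for the range over parts; blue is untreated and red is PHZ. The T cell share around neutrophils lies below that around any cell in both spleens, with overlapping ranges in the PHZ spleen, and the ranges of the macrophage share overlap in both.

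The same rule applied to the postnatal day 8 bone marrow, where neutrophils are produced, gave 7202 of 52594 cells, or 13.7% (13.4% to 13.99%), with 5.61% to 23.0% over parts. Its neutrophils averaged 1.81 counts of Mpo and 1.83 of Elane, near the 2.13 and 1.86 of PHZ spleen neutrophils, but 0.238 of Ctsg, below their 0.916. At least 3 counts of these genes were held by 26.3% of marrow neutrophils (25.3% to 27.4%). These transcripts were also common outside neutrophils in the marrow: after thinning, Mpo was left in 26.0% of neutrophils (36.3% without thinning), 12.2% of the other cells and 16.2% of the 99 T cells, whose median depth was 132 counts. In marrow, Mmp9 in neutrophils with at least 3 such counts averaged 2.26, compared with 0.28 in the PHZ spleen. After thinning, Mmp9 was left in 56.9% of all marrow neutrophils (73.0% without thinning), 18.1% of the other marrow cells and 18.2% of the T cells there. Marrow neutrophils had less Il1r2 (0.116 counts per cell) and Il1b (0.173) than those of either spleen, and more Stfa2l1 (5.29) and Cstdc4 (7.93). Both stefin genes were also widespread outside marrow neutrophils. Thinned cells kept Stfa2l1 in 79.8% of neutrophils (93.7% without thinning), 22.6% of the other cells and 37.4% of T cells, and Cstdc4 in 90.2% (97.9% without thinning), 30.7% and 46.5%. The part of this background in the marrow levels was not tested. Tissue and age differ between these sections, and the comparison has 1 section on each side.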

How the data were processed

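Xenium in situ counts of 2 spleen sections and, for 1 comparison, of the postnatal day 8 bone marrow were used. Per the file headers, Xenium Onboard Analysis 1.7.1.0 decoded the transcripts and segmented cells from nuclei, whereas the study's methods name Space Ranger. The authors deposited whole-number counts of transcripts per gene and cell without normalization. They also deposited a list of every decoded transcript with its quality score, and the counts equalled its transcripts with a score of at least 20. No genome build is given in the sources used here. Doublets were not called, and no cell was removed by a quality filter: each neutrophil had at least 5 detected genes. The members, gene lists and comparisons were chosen with earlier results of these data known. The erythroid list was used without 1 gene that is not reported here.

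Genes were named if they stood on a neutrophil list, among the 10 largest increases or decreases between the spleens, or among the 10 highest folds over other cells in either section, and, from marker lists of other cell types, for having the most counts. The genes of the rule were left out of these rankings. Genes named in other places were chosen after their values were seen. Folds are ratios of shares of all panel counts with exact conditional intervals, at a minimum of 200 counts, and a fold of at least 2 was called. Cells were thinned at random to 50 counts. Each section was divided into 4 parts at its median positions. The fold calculation was tested on simulated data. Python 3.11.15, NumPy 2.4.6, SciPy 1.17.1, pandas 2.3.3 and matplotlib 3.10.9 were used. Alternatives to the rule, to the totals, to the gene minimum and to the radius are given in the closing section.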

Additional observations from a re-analysis of the deposited data

Results flagged for a closer look

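For 3 genes the difference between the spleens ran in opposite directions in neutrophils and in the other cells, each by at least 1.5-fold. With 1 section per condition the difference in direction was not tested. C3, the gene of complement component 3, averaged 0.386 counts in untreated and 1.00 in PHZ neutrophils, 2.05-fold higher (1.84 to 2.28), while it was at 0.483-fold in the other cells. Among PHZ neutrophils, C3 averaged 1.87 counts in those with at least 3 counts of Mpo, Elane and Ctsg and 0.596 in those with 0. Ifitm6 was 2.38-fold higher in neutrophils and at 0.499-fold in the other cells, and without the C1q limit it was 1.86-fold higher in neutrophils. Cstdc4 was at 0.642-fold in neutrophils and 1.60-fold higher in the other cells, and it was at 0.971-fold among neutrophils without Mpo, Elane or Ctsg counts.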

How the results depend on the processing

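Each alternative changed 1 choice, except that leaving out S100a9 also lowered the threshold to 3, and that thinning to 50 counts did so too and left out shallower cells. Those on C1q and Pglyrp1 for gene folds and on neutrophils without Mpo, Elane or Ctsg counts were chosen after seeing the data. The untreated and PHZ shares of neutrophils were 1.98% and 4.23% with at least 3 defining counts, 0.475% and 0.683% with at least 10 (ratio 1.44), 2.05% and 3.25% without a C1q limit (ratio 1.59), and 0.509% and 1.28% with no C1q count (ratio 2.51). They were 1.22% and 2.41% without S100a9 (ratio 1.97), 0.686% and 1.40% without Csf3r (ratio 2.04), 0.904% and 1.69% without Pglyrp1 (ratio 1.87), 1.67% and 2.75% after thinning (ratio 1.65), and 1.10% and 1.54% from transcripts over the nucleus (ratio 1.40). Genes at least 2-fold lower after PHZ numbered 28 of 136 with at least 10 defining counts and 30 of 152 with no C1q count, in place of 50 of 188. Those lower than in the other untreated cells numbered 10 with at least 10 defining counts and 38 with a minimum of 50 counts per gene, in place of 18. The ratio of neutrophils around neutrophils to those around any cell was 2.55 in the untreated and 4.21 in the PHZ spleen at 40 µm, 8.12 and 9.71 at 10 µm, 3.26 and 10.6 with at least 10 defining counts, 2.38 and 5.54 without S100a9, and 3.73 and 6.04 over the nucleus. Fcnb reversed to 0.264-fold among neutrophils without Mpo, Elane or Ctsg counts, and the cause was not tested. Of 66 named genes compared between the spleens, 43 were past 2-fold and 34 of these stayed past it in every setting that gave them a value. The other 9 were Abca13, Cxcr2, Fcnb, Ifitm6, Il1b, Mmp9, Pi16, Psmb8 and Tyrobp. The named genes include the 10 largest increases and the 10 largest decreases by this same fold, so these counts describe a selected set. Over all 188 genes, 55 were at least 2-fold higher and 50 at least 2-fold lower. A lower gene minimum leaves single folds as they are. Depth limits the genes with few untreated counts (Ctsg, Saa3 and Lipg), whose folds have wide intervals. No paired analysis was possible because each condition has 1 section.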
